A study of Mus musculus with 6 samples.

Results

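The genes described here encode the enzymes that write and remove methyl groups on DNA and the core of Polycomb repressive complex 2 (PRC2). They were listed by name: the DNA methyltransferases Dnmt1, Dnmt3a and Dnmt3b, the dioxygenases Tet1, Tet2 and Tet3, and the PRC2 subunits Ezh1, Ezh2, Eed and Suz12. All 10 were found among the 23536 named genes of the array, with 22 of its 56570 probes, by the RefSeq transcript accession that the scanner files give for each probe. The samples were cultures of NIH3T3, an established line of mouse embryonic fibroblasts, infected with the retroviral vector pCX4bsr. The empty group carried the control vector and the GGCT-OE group the same vector with GGCT, gamma-glutamylcyclotransferase, an enzyme of glutathione breakdown. Both groups were grown in medium with 2% serum, and each had 3 Agilent 1-colour arrays, numbered 1 to 3 by experiment in the titles. The design text calls the 3 experiments independent. Per the labels the lines were stable expressers made by infection, but whether the infection itself was done anew each time is not stated there. The p-values therefore measure only the spread between these arrays. The question is how transcripts of the chromatin enzymes compare between cells with and without the GGCT vector.

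DNA methylation at CpG dinucleotides is laid down by Dnmt3a and Dnmt3b and copied onto the new strand after replication by Dnmt1, which Uhrf1 brings to hemimethylated sites. The Tet enzymes oxidise 5-methylcytosine with oxygen and 2-oxoglutarate, which leads to its loss by dilution or repair. PRC2 methylates histone H3 at lysine 27 through Ezh2 or Ezh1, and needs Eed and Suz12 for its activity. Ezh2 is typical of dividing cells and Ezh1 of resting ones. Genes described as targets of the E2F factors of the cell cycle include Ezh2, Suz12, Dnmt1 and Uhrf1, a list that is not complete.

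The share of probes well above background ranged over the arrays from 54.6% to 61.7%, and the 75th percentile of processed intensity from 380.0 to 471 units. Slide 1 (scan 1) carried experiment 1 of each group, and slide 2 (scan 2) the others. The single mouse Ggct probe gave -0.57, -0.72 and -0.66 on the empty arrays and -0.14, 0.20 and -0.16 on the GGCT-OE arrays, a difference of 0.62 ± 0.12 (SE, limma adjusted p = 0.0107). These values, like all levels below, are log2 intensities relative to the 75th percentile of the array. Whether the mouse probe reads the transcript of the vector was not tested. All 10 fibroblast markers listed, among them Col1a1, Vim and Thy1, were well above background on all arrays, with 5 lower and 1 higher with GGCT. The summed level of that list ranged from 11.25 to 11.57 on the empty arrays and from 10.81 to 11.17 on the GGCT-OE arrays. Epcam and Cdh1 of the epithelial list, Ptprc and Adgre1 of the blood cell list and Kdr and Tek of the endothelial list were at background on all 6 arrays. Of the 6 epithelial markers, Krt8 and Cldn4 were tested and higher, and Krt18 and Krt19 were well above background on 1 array each, with a summed list level from 3.76 to 4.01 on the empty and from 4.24 to 4.47 on the GGCT-OE arrays. Of 4 pluripotent or germ cell markers tested of 8 listed, Nanog and Dppa5a were lower, and the list summed to between 0.66 and 0.90 against 0.16 and 0.57. Of the 4 endothelial markers, Pecam1 was higher by 0.43 (limma adjusted p = 0.0466). Cdh5 was well above background on 0 empty arrays and on 3 GGCT-OE arrays, so it entered the test only through the latter, and it was at least 2.18-fold higher there, measured against the lowest signals well above background. The endothelial list summed to between -2.88 and -2.52 on the empty arrays and between -2.09 and -1.85 on the GGCT-OE arrays, and 1 of 3 blood cell markers tested was lower (1.80 to 2.06 against 1.77 to 2.37). The part of any of these in the results below was not tested. In bulk RNA, fewer cells with a transcript and less of it per cell cannot be told apart.

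With GGCT, the 3 DNA methyltransferases and the PRC2 subunits Ezh2 and Suz12 rose, by 1.32-fold to 1.91-fold on the brightest probe of each gene. Ezh1 and Eed did not pass the test, and neither did the brightest probes of the 3 Tet genes, of which Tet1 and Tet2 had negative and Tet3 a positive difference. By brightest probe, 5 of the 10 genes were called higher and 0 lower (limma over 31110 probes, adjusted p under 0.05). At an unadjusted p under 0.05 the counts were the same, 5 and 0. Among all 14055 named genes tested by brightest probe, 17.8% were called higher and 22.2% lower, 40.0% in all. The median difference of the 10 genes was 0.31, against -0.02 over all named genes tested. Blocking on the replicate number (the blocked fit below) gave 6 higher and 2 lower, where 26.5% and 30.9% of all named genes were (57.4% in all). Over every probe, 21 of the 22 were well above background on all arrays and were tested, and 11 were higher and 2 lower. Of the 11 higher probes 5 read Ezh2, so the probes are not separate genes. Of all probes tested, 17.7% were higher and 17.5% lower, 35.2% in all. Once the replicate number entered as a block, 14 member probes were higher and 5 lower, against 27.4% and 26.2% (53.6% in all) of the array. For 17 of the 21 probes, 5 of them of Ezh2, no array of one group lay within the range of the other. This held for 49.7% of all probes tested. An exact 2-sided permutation test of 3 against 3 arrays cannot give a p below 0.1, which each of these 17 probes reached.

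**Figure D1:**
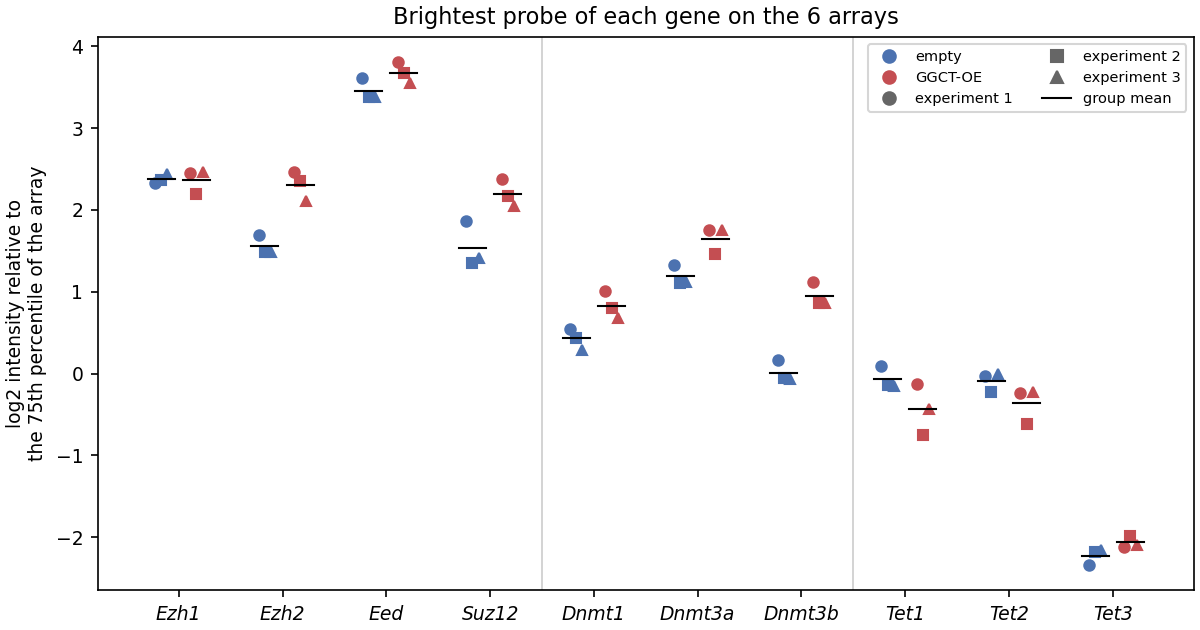
Levels of the brightest probe of the 10 genes (x axis) on the 6 arrays, as log2 intensity relative to the 75th percentile of the array (y axis). Blue points are empty arrays, red points GGCT-OE arrays, marker shapes give the experiment and black lines the group means; the red points lie above the blue ones for Ezh2, Suz12, Dnmt1, Dnmt3a and Dnmt3b and, by a small gap, Tet3, and levels of different genes cannot be compared, since each probe has its own brightness.

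Promoter windows of RefSeq (build GRCm38.p6), from 250 bases before to 50 after each annotated start, were searched for the E2F letters TTTCCCGC, TTTGCCGC, TTTGGCGC and TTTCGCGC on both strands. They were found for 3 of the 10 genes, Ezh2, Suz12 and Dnmt1, all of which rose. Of all 27025 genes with a window, 2.6% held at least 1 of these motifs, and 6 of 18 proliferation genes did. Counted by window, 3 of the 14 windows of the 10 genes held one, against 2.26% of all 32851 windows. No match overlapped another. The 3 windows are shown because they hold a match, with the matches in capitals.
Ezh2, chr6:47594981-47595280, minus strand: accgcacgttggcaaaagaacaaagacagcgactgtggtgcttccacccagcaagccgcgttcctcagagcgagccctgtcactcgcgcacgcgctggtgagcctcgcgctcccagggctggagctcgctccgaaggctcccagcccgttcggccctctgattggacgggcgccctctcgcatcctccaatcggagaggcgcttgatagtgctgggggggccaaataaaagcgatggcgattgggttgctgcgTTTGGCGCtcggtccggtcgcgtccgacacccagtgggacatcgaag
Suz12, chr11:79992856-79993155, plus strand: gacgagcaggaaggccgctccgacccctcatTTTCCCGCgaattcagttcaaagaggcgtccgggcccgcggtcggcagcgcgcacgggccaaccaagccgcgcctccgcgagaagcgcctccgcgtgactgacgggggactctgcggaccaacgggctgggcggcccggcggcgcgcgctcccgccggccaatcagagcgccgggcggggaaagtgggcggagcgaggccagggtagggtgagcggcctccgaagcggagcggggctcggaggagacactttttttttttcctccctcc
Dnmt1, chr9:20952574-20952873, minus strand: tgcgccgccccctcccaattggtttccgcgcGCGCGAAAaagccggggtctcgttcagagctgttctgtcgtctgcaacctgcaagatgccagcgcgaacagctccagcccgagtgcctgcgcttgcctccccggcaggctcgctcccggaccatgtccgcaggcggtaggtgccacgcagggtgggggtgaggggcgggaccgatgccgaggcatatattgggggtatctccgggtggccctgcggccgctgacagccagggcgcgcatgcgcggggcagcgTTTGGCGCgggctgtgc
In Ezh2 the match TTTGGCGC began at base 4 from the start, and in Suz12 TTTCCCGC began 219 bases before it. Dnmt1 has 3 annotated windows, of which the one shown held GCGCGAAA, the reverse complement of TTTCGCGC, 219 bases before the start and TTTGGCGC at base 34. The windows of Dnmt3a, Dnmt3b and of the genes that did not pass the test held no match, which says only that these letters are absent there. CpG dinucleotides were frequent in the windows of the 10 genes, with a median of 26 per window against 7 over all windows; they numbered 31 in the Ezh2 window, 41 in that of Suz12 and 57 in that of Tet2. Each of the 4 motifs contains a CpG, and the part of CpG content in the shares above was not tested. No binding was measured, and a match is a description only.

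Ezh2, the H3K27 methyltransferase of PRC2 in dividing cells (NM_007971), had 5 probes, all well above background on all arrays. On its brightest probe the level was 1.69, 1.49 and 1.49 on the empty arrays and 2.46, 2.36 and 2.11 on the GGCT-OE arrays. Each GGCT-OE array lay above each empty array. The difference was 0.76 ± 0.12 (SE, n = 3 against 3), a 1.69-fold rise (limma adjusted p = 0.00507), and it was 0.77, 0.87 and 0.62 within experiments 1, 2 and 3. The other 4 probes rose too, by 0.77, 0.83, 0.86 and 0.87. Probe A_51_P248067 had the smallest error of the 5, with 0.83 ± 0.08 (limma adjusted p = 0.000924). The brightest probe exceeded 92.5% of all tested probes in its difference. Without both arrays of replicate 2 it missed the threshold (0.70, limma adjusted p = 0.0824), and A_51_P248067 passed in all 18 alternatives run for it. Of the other 3 probes, A_55_P2619332 missed in 2 alternatives (limma adjusted p up to 0.107), A_55_P2619322 in 2 (0.0822) and A_55_P2619337 in 1 (0.0528), each without experiment 2 or experiment 3.

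Ezh1, the related methyltransferase of PRC2 (NM_007970), stood at 2.33, 2.37 and 2.44 on the empty arrays and at 2.45, 2.20 and 2.47 on the GGCT-OE arrays. The groups overlapped, and the difference was -0.01 ± 0.10 (limma adjusted p = 0.971), with a 95% confidence interval from -0.26 to 0.25. Its single probe thus leaves room for a change of up to about that size in either direction. Within each array, the Ezh2 level minus the Ezh1 level was -0.64, -0.88 and -0.95 on the empty arrays and 0.00, 0.16 and -0.36 on the GGCT-OE arrays. That balance moved toward Ezh2 by 0.76 on the log2 scale, with no overlap between the groups (exact 2-sided permutation p = 0.1, adjusted p = 0.14 over 7 pairs of related genes). This was the smallest p that the design allows, so the test could not pass the threshold.

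Suz12, the subunit that holds the complex together (NM_199196), stood at 1.86, 1.35 and 1.41 on the empty arrays and at 2.38, 2.17 and 2.05 on the GGCT-OE arrays. The empty array of experiment 1 was the highest of its group and still below every GGCT-OE array. The rise was 0.66 ± 0.17, or 1.58-fold (limma adjusted p = 0.0244), with 0.52, 0.82 and 0.64 in the 3 experiments. A second, dimmer probe had a difference of 0.52 ± 0.21 (limma adjusted p = 0.103), which passed in the blocked fit (adjusted p = 0.0123). The call of the brighter probe was lost without GGCT-OE replicate 1 (0.57, limma adjusted p = 0.0589), GGCT-OE replicate 2 (0.68, 0.065), empty replicate 2 (0.57, 0.0796) or empty replicate 3 (0.60, 0.0838). It was also lost without the arrays of experiment 2 (0.58, limma adjusted p = 0.171) or of experiment 3 (0.67, 0.144) and with no filter on dim probes (0.0802).

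Eed, which binds trimethylated H3K27 and stimulates the complex (NM_021876), was read by 1 probe at 3.61, 3.38 and 3.38 on the empty arrays and 3.81, 3.67 and 3.55 on the GGCT-OE arrays. The highest empty array lay above the lowest GGCT-OE array. The difference of 0.22 ± 0.11 (95% confidence interval -0.05 to 0.49) did not pass (limma adjusted p = 0.185). It was 0.20, 0.29 and 0.17 within the experiments, and it passed in the blocked fit (limma adjusted p = 0.0345).

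Dnmt3b, a de novo DNA methyltransferase, had the largest difference of the 10 genes by brightest probe. That probe (NM_001003961) stood at 0.16, -0.06 and -0.07 on the empty arrays and at 1.12, 0.86 and 0.86 on the GGCT-OE arrays. The groups were far apart compared with the spread within them, whose SD was 0.13 and 0.15. Dnmt3b rose 1.91-fold (0.94 ± 0.12, limma adjusted p = 0.00202), by 0.97, 0.92 and 0.93 in experiments 1, 2 and 3, and it passed in all 20 alternatives, with differences between 0.83 and 1.01. A second probe for the same transcript rose by 0.84 ± 0.13 (limma adjusted p = 0.00485). Its call was lost without the arrays of experiment 2 (0.85, limma adjusted p = 0.0699) or of experiment 3 (0.83, 0.0594). The third probe, for another Dnmt3b transcript (NM_010068), was well above background on 1 array of each group only, both of experiment 1, and was not tested.

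Dnmt3a, the other de novo enzyme (NM_007872), stood at 1.33, 1.11 and 1.12 on the empty arrays and at 1.75, 1.46 and 1.75 on the GGCT-OE arrays. The groups did not overlap, and the rise was 0.47 ± 0.12, or 1.38-fold (limma adjusted p = 0.0267). It was 0.42, 0.35 and 0.63 within the experiments. The call was lost without GGCT-OE replicate 1 (0.42, limma adjusted p = 0.0659), empty replicate 2 (0.43, 0.0899), empty replicate 3 (0.43, 0.0947) or GGCT-OE replicate 3 (0.42, 0.0906). Without the arrays of experiment 2 or of experiment 3 the adjusted p was 0.0807 and 0.251, and with no filter on dim probes 0.0971. The dim second probe, between -4.12 and -3.40 on the empty arrays and between -3.17 and -2.77 on the GGCT-OE arrays, rose by 0.86 ± 0.21 (limma adjusted p = 0.0215). With normexp background, whose offset compresses dim probes, its difference was 0.29 (limma adjusted p = 0.184). That call was also lost without empty replicate 2 (0.70, 0.0633), GGCT-OE replicate 2 (0.76, 0.0715) or empty replicate 3 (0.80, 0.0726). No filter on dim probes (limma adjusted p = 0.0698) ended it too, as did leaving out experiment 2 (0.61, 0.163) or experiment 3 (0.91, 0.12).

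Dnmt1, the maintenance methyltransferase (NM_010066), had 1 probe, at 0.55, 0.44 and 0.29 on the empty arrays and at 1.01, 0.80 and 0.68 on the GGCT-OE arrays. The lowest GGCT-OE array was above the highest empty array. Dnmt1 rose 1.32-fold (0.40 ± 0.12, limma adjusted p = 0.0435), the smallest of the 5 rises, and by 0.46, 0.35 and 0.39 in the 3 experiments. This value was just past the threshold and missed it without any 1 of the 6 arrays. Without empty replicates 1, 2 and 3 in turn the difference was 0.46, 0.41 and 0.33 (limma adjusted p = 0.0508, 0.106 and 0.142), and without GGCT-OE replicates 1, 2 and 3 it was 0.31, 0.42 and 0.48 (0.0922, 0.0915 and 0.0544). It passed in the blocked fit (limma adjusted p = 0.00677) and without experiment 1 (0.0438), and missed without experiment 2 (0.43, 0.199), without experiment 3 (0.41, 0.178) and with no filter on dim probes (0.141).

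On the brightest probes, the balance among the methyltransferases moved toward Dnmt3b. The Dnmt1 level minus the Dnmt3b level was 0.39, 0.50 and 0.36 on the empty arrays and -0.11, -0.06 and -0.18 on the GGCT-OE arrays, a shift of -0.53. Dnmt3a minus Dnmt3b was 1.18, 1.17 and 1.19 on the empty arrays and 0.63, 0.60 and 0.88 on the GGCT-OE arrays, a shift of -0.47. Neither pair overlapped between the groups (exact permutation p = 0.1 each, adjusted p = 0.14). Dnmt1 minus Dnmt3a shifted by -0.06 with overlapping groups (exact permutation p = 0.9, adjusted p = 0.9). Such a shift describes unequal change of the brightest probes and not which transcript is more abundant. The dim second Dnmt3a probe rose by 0.86 (0.29 with normexp background). With the mean of a gene's tested probes, Dnmt3a rose by 0.66 and Dnmt3b by 0.89.

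**Figure D2:**
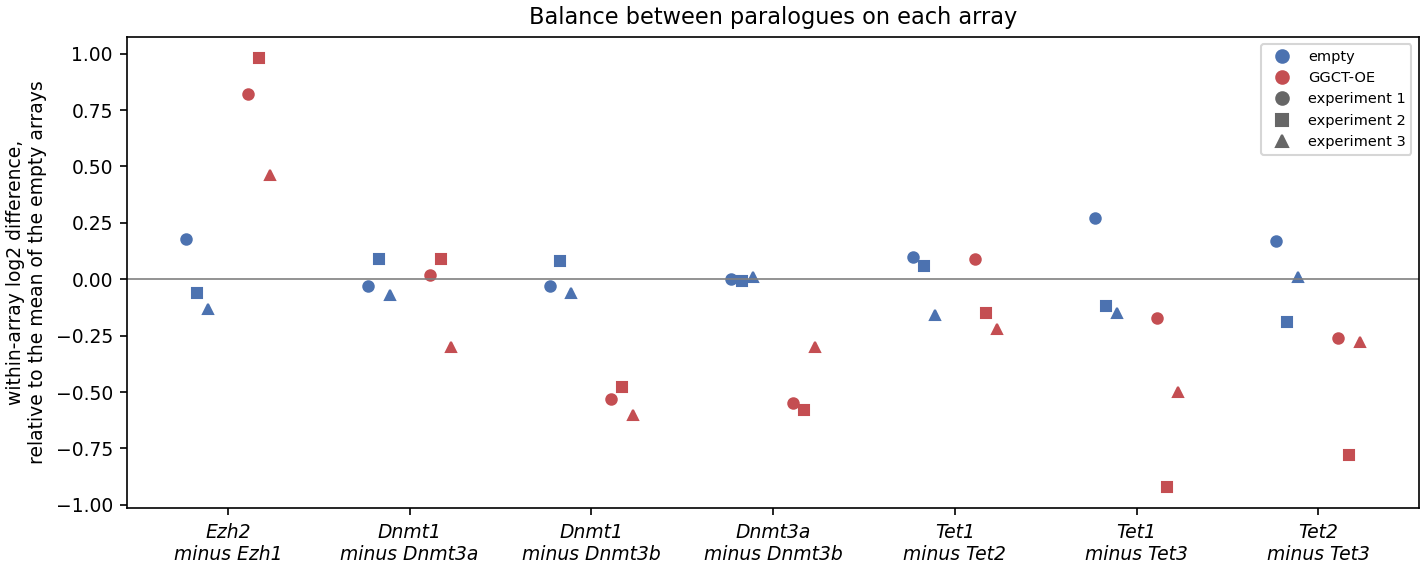
Within-array log2 difference between the brightest probes of related genes (x axis, 7 pairs), relative to the mean of the empty arrays (y axis), with empty arrays in blue, GGCT-OE arrays in red and the experiment as marker shape. Ezh2 gained on Ezh1 by 0.76, Dnmt1 and Dnmt3a shifted by -0.53 and -0.47 against Dnmt3b, and the colours overlap for Dnmt1 against Dnmt3a and for Tet1 against Tet2.

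None of the 3 Tet genes passed on its brightest probe (limma, also 0 at an unadjusted p under 0.05). Tet1 (NM_001253857) had 3 probes with differences of -0.37, -0.41 and -0.23. Its brightest probe stood at 0.09, -0.14 and -0.15 on the empty arrays and at -0.13, -0.75 and -0.43 on the GGCT-OE arrays. The groups overlapped at the GGCT-OE array of experiment 1, and the difference of -0.37 ± 0.17 did not pass (limma adjusted p = 0.149). The probe A_51_P512172 fell by 0.41 ± 0.11 (limma adjusted p = 0.0324), from -1.91, -2.12 and -2.13 to -2.41, -2.61 and -2.35. This call was lost when any 1 of the 6 arrays was left out, with differences from -0.46 to -0.33 and limma adjusted p from 0.0545 to 0.0829. Trended and robust variance (limma adjusted p = 0.0524) and no filter on dim probes (0.117) ended it too. So did leaving out both arrays of experiment 1 (-0.36, 0.0693), 2 (-0.36, 0.157) or 3 (-0.50, 0.141). In the blocked fit all 3 Tet1 probes fell (limma adjusted p = 0.0372, 0.0175 and 0.0399).

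Tet2 (NM_001346736) stood at -0.03, -0.22 and -0.01 on the empty arrays and at -0.24, -0.62 and -0.23 on the GGCT-OE arrays on its brighter probe. The groups lay next to each other without overlap, and the difference was -0.27 ± 0.14 (limma adjusted p = 0.172). It passed in the blocked fit (limma adjusted p = 0.0281) but not with the slide as the block (0.117). The dim second probe fell by 0.39 ± 0.11 (limma adjusted p = 0.0343). With normexp background its difference was -0.17 (limma adjusted p = 0.113). Its call was also lost without GGCT-OE replicate 1 (-0.37, limma adjusted p = 0.078), empty replicate 2 (-0.38, 0.102), GGCT-OE replicate 2 (-0.35, 0.0977) or empty replicate 3 (-0.33, 0.121). Trended and robust variance (limma adjusted p = 0.1) and no filter on dim probes (0.124) ended it too. So did leaving out both arrays of experiment 2 (-0.34, 0.227) or of experiment 3 (-0.40, 0.169). For Tet1 and Tet2, then, a dimmer probe carried the call and the brightest had a difference of the same sign.

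Tet3 (NM_001347313) stood at -2.34, -2.18 and -2.16 on the empty arrays and at -2.12, -1.98 and -2.09 on the GGCT-OE arrays. The groups were close but did not overlap, and the difference of 0.16 ± 0.09 (95% confidence interval -0.06 to 0.38) did not pass (limma adjusted p = 0.215). Its dimmer probe differed by 0.43 ± 0.16 (limma adjusted p = 0.0877). That probe passed in the blocked fit (0.0487), and its difference was -0.01 with normexp background. Within arrays, Tet1 shifted by -0.53 and Tet2 by -0.44 against Tet3, both without overlap between the groups (exact permutation p = 0.1, adjusted p = 0.14). Tet1 against Tet2 shifted by -0.09 with overlap (exact permutation p = 0.5, adjusted p = 0.583).

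**Figure D3:**
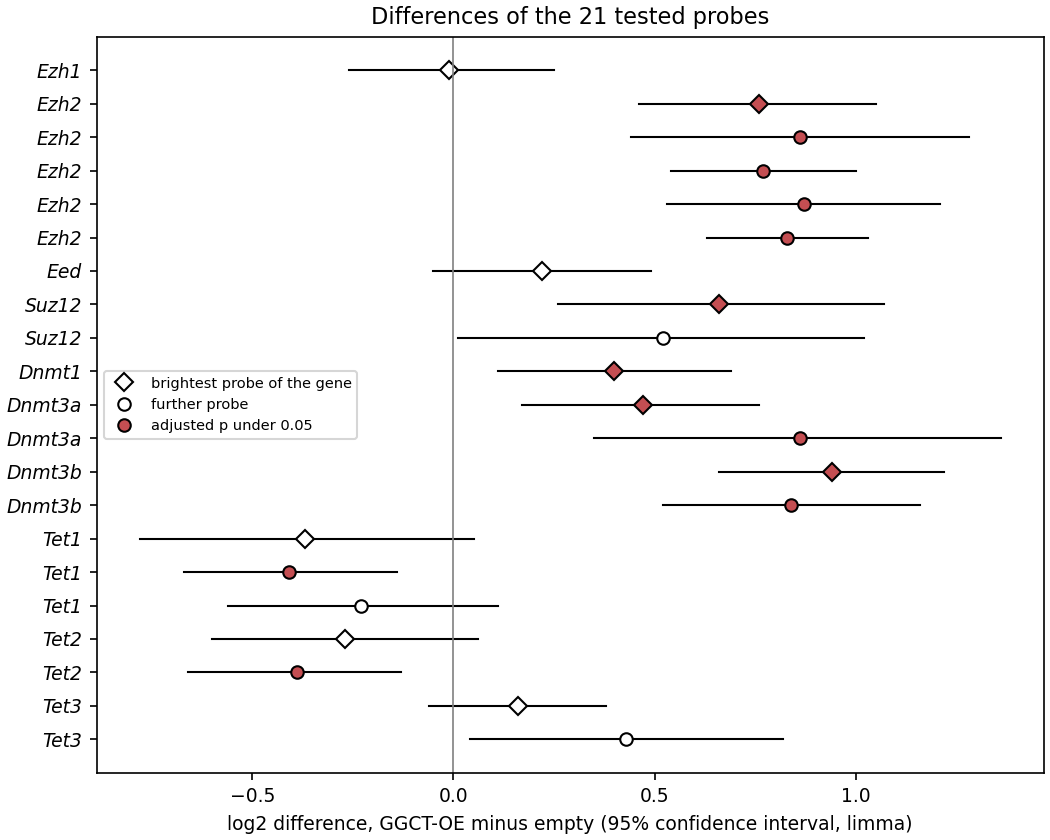
Log2 difference between GGCT-OE and empty (x axis) with its 95% confidence interval from limma for the 21 tested probes (y axis, named by gene, brightest first). Filled symbols passed an adjusted p under 0.05; the 5 Ezh2 probes lie between 0.76 and 0.87, all Dnmt probes are filled, and Tet1 and Tet2 lie left of 0 while Tet3 lies right of it.

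Proliferation genes moved with the methyltransferases and Ezh2. Of 21 listed, 18 were higher and 0 lower with GGCT (limma, the same counts at an unadjusted p under 0.05), with a median difference of 0.74. Over all named genes tested, 17.8% were higher and 22.2% lower. Bub1, a spindle checkpoint kinase, rose by 1.42, Cdk1, the mitotic kinase, by 1.16, Top2a, the topoisomerase that untangles replicated DNA, by 1.10, and cyclin A2 (Ccna2) by 1.01. The summed level of the list ranged from 8.03 to 8.13 on the empty arrays and from 8.58 to 8.86 on the GGCT-OE arrays. Leaving out experiment 2 or experiment 3 altogether lowered the count to 9 and 6. The part of proliferation in the values of the 10 genes was not tested.

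Partners of the DNA methyltransferases changed in both directions. Of 10 cofactors, 4 were higher and 2 lower, with a median difference of 0.09, where 17.8% and 22.2% of all named genes were. Uhrf1, the partner of Dnmt1 at hemimethylated DNA, rose 1.95-fold (0.96 ± 0.10, limma adjusted p = 0.00122), and its dim second probe by 1.08 (0.62 with normexp background). Its relative Uhrf2 fell 8.03-fold (-3.01 ± 0.17, limma adjusted p = 0.000119), from 1.60, 1.79 and 1.76 on the empty arrays to -1.61, -0.99 and -1.26 on the GGCT-OE arrays. With normexp background that difference was -2.53. Both further Uhrf2 probes were well above background on all empty arrays but on 2 and 1 of the GGCT-OE arrays only, so the size of their differences was not measured on every array (-3.21 and -2.87, or -1.53 and -1.0 with normexp background). Dnmt3l, the catalytically inactive partner of the de novo enzymes, fell by 0.76, and the replication ligase Lig1 rose by 0.54. The count of higher cofactors was 2 without empty replicate 2 or GGCT-OE replicate 2.

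Proteins that read methylated CpG were likewise mixed, with 4 of 8 higher and 1 lower (median 0.09), where 17.8% and 22.2% of all named genes were. Mbd4, which is also a glycosylase, rose by 0.57 on a dim probe (0.31 with normexp background) and Mbd1 by 0.46 on its brightest probe, with -0.01 on another. Zbtb33, or Kaiso, fell by 0.80 on its brightest probe. Its other probe had a difference of -0.59 that did not pass (limma adjusted p = 0.112), or -0.34 with normexp background. The count of higher readers was 1 without GGCT-OE replicate 1, empty replicate 2 or GGCT-OE replicate 2, and 0 without empty replicate 3 or GGCT-OE replicate 3. In the repair of oxidised cytosine, 2 of 10 genes were higher and 1 lower (median 0.20), no larger a share than the 40.0% called over all named genes. The ligase Lig3 rose by 0.40 and the scaffold Xrcc1 by 0.41, while the glycosylase Smug1 fell by 0.43 on its brightest probe, with -0.50 and -0.01 on 2 others that did not pass. Tdg, the glycosylase that removes products of the Tet enzymes, was chosen after its values were seen and had a difference of 0.23 ± 0.22. The count of higher repair genes was 1 without empty replicate 2, GGCT-OE replicate 2 or GGCT-OE replicate 3 and 0 without empty replicate 3, and it was 4 in the blocked fit. Without either array of replicate 3 the count of lower ones was 0.

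Genes that supply the methyl donor and 2-oxoglutarate were mixed, with 3 of 12 higher and 2 lower (median -0.06), a share near the 40.0% called over all named genes. Idh2, the mitochondrial isocitrate dehydrogenase that makes 2-oxoglutarate, rose 1.71-fold (0.77 ± 0.07, limma adjusted p = 0.00081). Its relative Idh1 in the same list had a difference of -0.43 ± 0.14. That difference did not pass (limma adjusted p = 0.0546), but it did in the blocked fit (0.00756). Mtrr, which keeps methionine synthase active, fell by 0.59. In the blocked fit 5 were lower. The count of lower ones was 1 without empty replicate 2 or GGCT-OE replicate 3 and 0 without empty replicate 3.

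Around PRC2, 2 of 7 tested accessory subunits were higher and 0 lower (limma, or 3 and 0 at an unadjusted p under 0.05), with a median of 0.13. This was no larger a share than the 40.0% called over all named genes. Mtf2, a Polycomb-like protein that brings PRC2 to CpG islands, rose by 0.44, 0.44 and 0.39 on its 3 probes, and the histone-binding Rbbp7 by 0.31 and 0.37 on its 2. Phf19 and Epop were at background on all 6 arrays. The count was 1 without any 1 array other than empty replicate 1, and also with the median subtracted. Of 23 subunits of PRC1, the complex that ubiquitinates histone H2A, 7 were higher and 3 lower (median 0.20), a share near the 40.0% called over all named genes. Phc1 rose by 0.45 and the CpG-binding Kdm2b by 0.43. Scmh1 fell 2.07-fold (-1.05 ± 0.07, limma adjusted p = 0.000286) and by similar amounts on 2 further probes, while another differed by 0.11. The chromodomain protein Cbx6 fell by 0.46. Higher PRC1 subunits numbered 2 without empty replicate 2 or 3, 4 without GGCT-OE replicate 2 and 3 without GGCT-OE replicate 3. Of the genes listed for the reversal of these marks, 0 of 5 were higher and 1 was lower (limma, also at an unadjusted p under 0.05). Among all named genes 22.2% were lower. The H3K27 demethylase Kdm6a fell by 0.37 on a dim probe (limma adjusted p = 0.036). This call was lost with normexp background (-0.20), with trended and robust variance and without any 1 array other than GGCT-OE replicate 3. In fits that left out experiment 2 or experiment 3 altogether, no PRC2 accessory subunit, PRC1 subunit, methyl-CpG reader or repair gene was called higher (limma), and 1 cofactor and 1 donor supply gene were. With no filter on dim probes the higher counts were 0 for these same 4 lists and 2 for the cofactors, and the lower counts 0 for the repair, donor supply and demethylase lists. Kdm6b, a relative of Kdm6a, had a difference of -0.33 (limma adjusted p = 0.179), which passed in the blocked fit (0.0213).

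**Figure D4:**
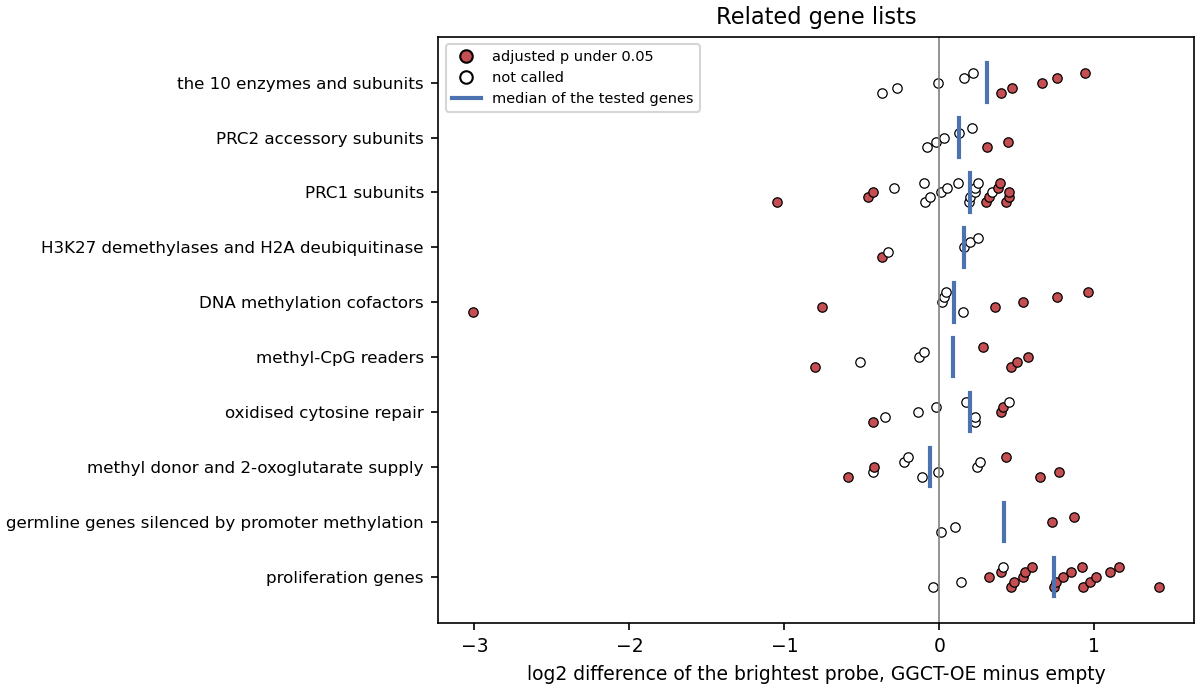
Log2 difference of the brightest probe of each tested gene (x axis) in the 10 genes and 9 related lists (y axis). Red points passed an adjusted p under 0.05, white points did not, and blue bars are medians, from -0.06 for methyl donor supply to 0.74 for proliferation genes; the point at -3.01 is Uhrf2.

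Germline genes that promoter methylation keeps silent in somatic cells were mostly at background in both groups. Of 19 listed, 11 stayed at background on all 6 arrays, among them Dazl, Ddx4 and Mael, and 4 were above it on all arrays. Of these 4 tested, 2 were higher with GGCT and 0 lower (limma, the same at an unadjusted p under 0.05). Over all named genes tested, 17.8% were higher and 22.2% lower. Brdt, a testis bromodomain protein, rose by 0.87 and 0.85 on 2 probes and differed by 0.10 on another. Sycp1, of the synaptonemal complex, rose by 0.73 (limma adjusted p = 0.0116). With normexp background Sycp1 differed by 0.38, the second Brdt probe by 0.43 and the brightest by 0.60. The homeobox gene Rhox5 averaged 7.35 on the empty and 7.45 on the GGCT-OE arrays, and Taf7l 2.11 and 2.12, so neither was silent in these cells. Rhox5 differed by 0.10 and Taf7l by 0.01, neither past the threshold. DNA methylation and histone marks were not measured in these samples.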

How the data were processed

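RNA of 6 NIH3T3 cultures was labelled with Cy3, per the labels, and hybridised to 1-colour Agilent arrays. The deposited scanner files hold spot intensities from Agilent Feature Extraction 12.1.0.3, background-subtracted and detrended within each array, per the file headers. The series table that the authors deposited is in log2 units. Each column equals the array's log2 processed intensity less a constant (correlation 1 above 200 units), with medians from -3.87 to -3.69. Its scale and direction are thus known, and no centring over arrays was seen.

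Of 62976 spots per file, 3671 controls were left out, as were 578 outlier-flagged spots over all arrays. No spot was saturated. Of 56605 probes 56570 were usable on all arrays, and 34504 (61.0%) matched a symbol through the RefSeq table of GRCm38.p6. The array's grid names another build (mm9), so only promoter windows carry coordinates. The 75th percentile of log2 intensity was subtracted per array. Probes well above background on all 3 arrays of a group entered a 2-sided limma test without block (version 3.58.1, R 4.3.3), with Benjamini-Hochberg adjustment over 31110 probes, after a check on simulated data. Errors of differences are SEs from this fit, and the number of arrays limits their precision. Counts of genes use the brightest probe of each gene.

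Deviations from the group means were correlated between arrays of the same number (0.715, 0.436 and 0.34). The blocked fit took the titles' numbers to pair the samples. Unlike numbers on slide 2 had similar correlations (0.32 and 0.282), so these correlations separate the slides and not numbers 2 and 3. The main fit did not use the pairs. By brightest probe, Eed, Tet1 and Tet2 missed the threshold in it and passed in the blocked fit (limma adjusted p = 0.0345, 0.0372 and 0.0281). The groups of members and lists, and the rule that names up to 4 called genes per list with the smallest p (or the 2 with the smallest p where fewer than 2 are called), were chosen with earlier results of these data known. Genes named as at background, Rhox5, Taf7l, Tdg, Idh1 and the cell type markers fall outside that rule and were chosen after their values were seen. Some genes that the rule names are not reported here. The alternatives were another scaling, background correction (normexp, offset 50, on median signals), dim-probe filter, choice of probes or variance model, a block, the series table, and leaving out arrays.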

Additional observations from a re-analysis of the deposited data

How the results depend on the processing

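Quantile normalization, subtracting the median, normexp background, the deposited series table, trended variance, either gene-level fit and a stricter filter each left 5 of the 10 genes higher and 0 lower. With no filter on dim probes 2 genes were higher, and 3052 probes were higher and 3409 lower over the array, against 5511 and 5431. The replicate block gave 8521 and 8160, with 2 of the 10 genes lower. Blocking on the slide gave 8598 and 8163, with 1 lower. When arrays were left out, between 1 and 5 of the 10 genes were higher and between 0 and 1 lower, while 1089 to 6121 probes were higher and 1630 to 6059 lower over the array. The lowest counts came without both arrays of replicate 3 over the array and without both of replicate 2 for the 10 genes. Signs turned for the small difference of Ezh1, which ranged from -0.07 to 0.08 as arrays were left out and was 0.03 with quantile normalization and without empty replicate 3 and 0.08 without GGCT-OE replicate 2 or both arrays of replicate 2, and for the dimmer Tet3 probe (-0.01 with normexp background). The Dnmt1 to Dnmt3a balance ranged from -0.14 to 0.06 when 1 array was left out, and the Tet1 to Tet2 balance was 0.00 with the mean of the tested probes. The cause of these changes was not tested. The balance of Ezh2 over Ezh1 was 0.76 also with same-numbered arrays paired (replicate block). Pairing cannot change this value, since the mean of the pair differences equals the difference of the group means. Exact sign flips of 3 pairs cannot give a p below 0.25. For dim probes, such as the second probes of Dnmt3a, Tet2 and Tet3, signal over background limits the values.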
